A study of Mus musculus with 18 samples.

Results

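The genes described here are those whose mRNA level in a mouse fibroblast line carrying an extra TRIM21 gene lay at or below 50% of the level in the parental line. They were chosen on these values: a gene was kept where its mean over 9 wildtype samples was at least 1 CPM (counts per 1000000 gene reads) and its mean over 9 Trim_21 samples was at most 50% of that. A set of named genes of the Y chromosome, of imprinted clusters and of other groups, and all symbols beginning with Col, Hox, Trim, Mmp or Adamts, were then taken out. Of 24062 genes counted, 11160 had a wildtype mean of at least 1 CPM with those names left out. Before the names were taken out 90 genes met both limits, and 77 remained after 13 were removed. The working name of the set called these genes autosomal. The annotation placed 72 of the 77 on autosomes and 4 on the X chromosome (Agtr2, Fhl1, Nhsl2 and Rgag4, which RefSeq names Rtl5), so the set is called here the genes at or below 50%. The remaining member, Rn45s, the precursor of the ribosomal RNAs, had no place in the annotation table.

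NIH3T3 is an established line of mouse embryonic fibroblasts. The study used that line, labelled wildtype, and a derivative labelled Trim_21, NIH3T3-mCherry-mTRIM21, which carries mouse TRIM21 joined to the red fluorescent protein mCherry. Cells of each line were electroporated with PBS, with bovine serum albumin (BSA) or with an antibody (IgG) at 1400 V with 2 pulses of 20 ms, and RNA was taken 16 h later, so that every group, controls included, had been electroporated. This gave 6 groups of 3 samples, numbered 10, 11 and 14 in each group. The promoter that drives the fusion, and whether the line is 1 clone or a pool, are not given in the sources used here. Nothing in the labels says that the 3 samples of a group came from separate cultures, so p-values measure the spread between these samples, which may be technical.

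TRIM21 is a cytosolic antibody receptor and ubiquitin ligase, which binds the constant part of an antibody and directs the antibody and what it holds to the proteasome. Fibroblasts make and remodel the extracellular matrix, and many of the genes by which fibroblasts from different sites differ encode matrix proteins, secreted regulators, surface receptors and developmental transcription factors. The matrix glycoproteins and small leucine-rich proteoglycans bind collagen fibrils and growth factors. The angiotensin system, of which the members Ace and Agtr2 are parts, cuts a circulating peptide to the hormone angiotensin II and senses it through surface receptors.

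Gene reads per sample ran from 20314542 to 29766433 in the Trim_21 samples and from 19509017 to 26521824 in the wildtype samples. Trim21 itself, which checks the labels, stood at 965 to 1169 CPM in the 9 Trim_21 samples and at 6.49 to 10.1 CPM in the 9 wildtype samples. Of 13 fibroblast markers, 11 had a mean of at least 1 CPM in wildtype and 10 in Trim_21; Lum, a member, was among them, and Tcf21 was at 0 in every sample. The summed levels of the epithelial, endothelial, skeletal muscle and adipocyte markers were at most 2.66 CPM in every sample, and those of leukocyte markers at most 11.9 CPM. Those of the neuron and glia markers, with the member Snap25 among them, ran from 17.4 to 25.2 CPM, of the chondrocyte and osteoblast markers from 201 to 300 CPM, and of the smooth muscle and pericyte markers from 1667 to 2663 CPM, with overlapping ranges in the 2 lines. Of 12140 genes tested with edgeR's quasi-likelihood test and Benjamini-Hochberg adjustment, 750 differed between the lines (6.18%), 581 of them lower in Trim_21 (4.79%) and 169 higher (1.39%). Without Trim_21 PBS 14 it was 1268 genes, and with the sample number as a block the count was higher still (last section).

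A few libraries stood apart for these genes. Trim_21 PBS 11 had the lowest level of its line for 44 of the 77 members, and its median member stood at 21.8% of the wildtype mean, against 34.9% to 44.2% in the other 8 Trim_21 samples. Wildtype PBS 14 had the highest level of its line for 32 of the 77. Without Trim_21 PBS 11 the rule kept 65 genes, 64 of them members, and without wildtype PBS 14 it kept 71, 69 of them members. Rn45s was a member through a single library: wildtype BSA 14 held 9247 CPM, while the other 8 wildtype samples ran from 479 to 1420 CPM and the 9 Trim_21 samples from 410 to 1328 CPM. Without that library its Trim_21 mean was not lower, with a log2 fold change of 0.045 between the lines, and the rule kept 72 genes, all of them members.

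Promoter sequence is shown for 4 members and for Gas6, which had a low ratio. The DNA in front of these genes can so be read beside their levels. The 4 were those with the most reads among members that had a matched promoter and were called higher in the highest-numbered samples. That comparison is described further below. Fhl1 and Pappa2, with wildtype means of 55.6 and 48.8 CPM, were not called in it and so could not be chosen. Each run is the 250 bases before the RefSeq transcription start on the gene's own strand, in GRCm38.p6, the release of the mm10 build that the submitters' processing notes name. Each CG dinucleotide is in capitals.
Slc1a3: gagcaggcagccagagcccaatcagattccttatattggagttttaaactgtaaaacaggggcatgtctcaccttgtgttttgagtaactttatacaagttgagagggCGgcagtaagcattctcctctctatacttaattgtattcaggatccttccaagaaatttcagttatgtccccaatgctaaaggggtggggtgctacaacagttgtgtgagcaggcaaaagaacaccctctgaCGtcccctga
Postn: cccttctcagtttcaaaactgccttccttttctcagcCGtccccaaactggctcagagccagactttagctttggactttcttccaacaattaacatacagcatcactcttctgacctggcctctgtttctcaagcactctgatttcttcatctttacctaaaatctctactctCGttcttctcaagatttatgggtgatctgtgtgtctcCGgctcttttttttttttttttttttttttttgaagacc
Agtr2: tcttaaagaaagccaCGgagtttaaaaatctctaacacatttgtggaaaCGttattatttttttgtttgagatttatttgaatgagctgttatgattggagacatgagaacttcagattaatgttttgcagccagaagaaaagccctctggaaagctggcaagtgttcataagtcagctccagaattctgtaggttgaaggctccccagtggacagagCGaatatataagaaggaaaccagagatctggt
Aspn: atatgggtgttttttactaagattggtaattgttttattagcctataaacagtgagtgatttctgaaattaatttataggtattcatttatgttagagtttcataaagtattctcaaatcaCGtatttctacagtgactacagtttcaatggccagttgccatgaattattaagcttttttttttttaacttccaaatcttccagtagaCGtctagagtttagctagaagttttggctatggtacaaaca
Gas6: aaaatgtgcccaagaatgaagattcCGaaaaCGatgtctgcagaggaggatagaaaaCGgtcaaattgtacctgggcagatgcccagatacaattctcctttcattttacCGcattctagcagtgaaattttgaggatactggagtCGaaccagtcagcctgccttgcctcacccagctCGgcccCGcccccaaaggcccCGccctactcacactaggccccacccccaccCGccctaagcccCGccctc
The windows are chr15:8710808-8711057 for Slc1a3, chr3:54359017-54359266 for Postn, chrX:21484374-21484623 for Agtr2, chr13:49544193-49544442 for Aspn and chr8:13494536-13494785 for Gas6. Slc1a3 and Aspn held 2 CG dinucleotides each, Postn and Agtr2 3 each and Gas6 10. Rgs4, the next gene by the same choice, held 13, and its sequence is not shown. These genes were picked, in part by their level in the highest-numbered samples. Their counts therefore do not stand for the other members or for members with many reads. Over 8962 such windows of genes with a wildtype mean of at least 1 CPM the median was 17, with quartiles of 10 and 23. Windows with at most 3 made up 6.08%, windows with at most 10 made up 25.3% and windows with at most 13 made up 37.3%. The letters TATAAA, or TTTATA as they read from the other strand, occurred in the Slc1a3, Aspn and Rgs4 windows and in 5.88% of all windows. No such count is given over all members: a window was matched for 54 of the 77 (70.1%), too few for a property of the set.

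The members had few reads. Their median wildtype mean was 3.88 CPM, against 35.8 CPM for all 11160 genes, and 47 of the 77 (61.0%) lay under 5 CPM, against 11.5% of all genes. The median count of a member in a sample was 86 in wildtype and 36 in Trim_21, and 26 members fell under 10 counts in at least 1 Trim_21 sample. The ratio of Trim_21 to wildtype means ran from 7.16% to 49.7% with a median of 40.8%, where the median of all 11160 genes was 100.6%. At most 20% was left of 10 members, at most 25% of 14, between 25% and 40% of 22 and over 40% of 41. For 61 of the 77 all 9 Trim_21 samples lay below all 9 wildtype samples, which held for 1.37% of the 11160 genes. The 16 members whose lines overlapped were Mfap4, Kcnj15, Anpep, Fhl1, Acot11, Optc, Rn45s, Tlr2, Postn, Nfatc2, Dlg2, Tnn, Snap25, Ccdc8, Serpina3n and Klf12. Since the ratio chose these genes, these values describe them and test nothing. In these bulk samples fewer cells of a type and less RNA per cell cannot be told apart. In the other direction, 4 of the 11160 genes had a Trim_21 mean of at least double the wildtype mean; with the minimum of 1 CPM set on the Trim_21 mean instead, 9 genes did.

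**Figure D1:**
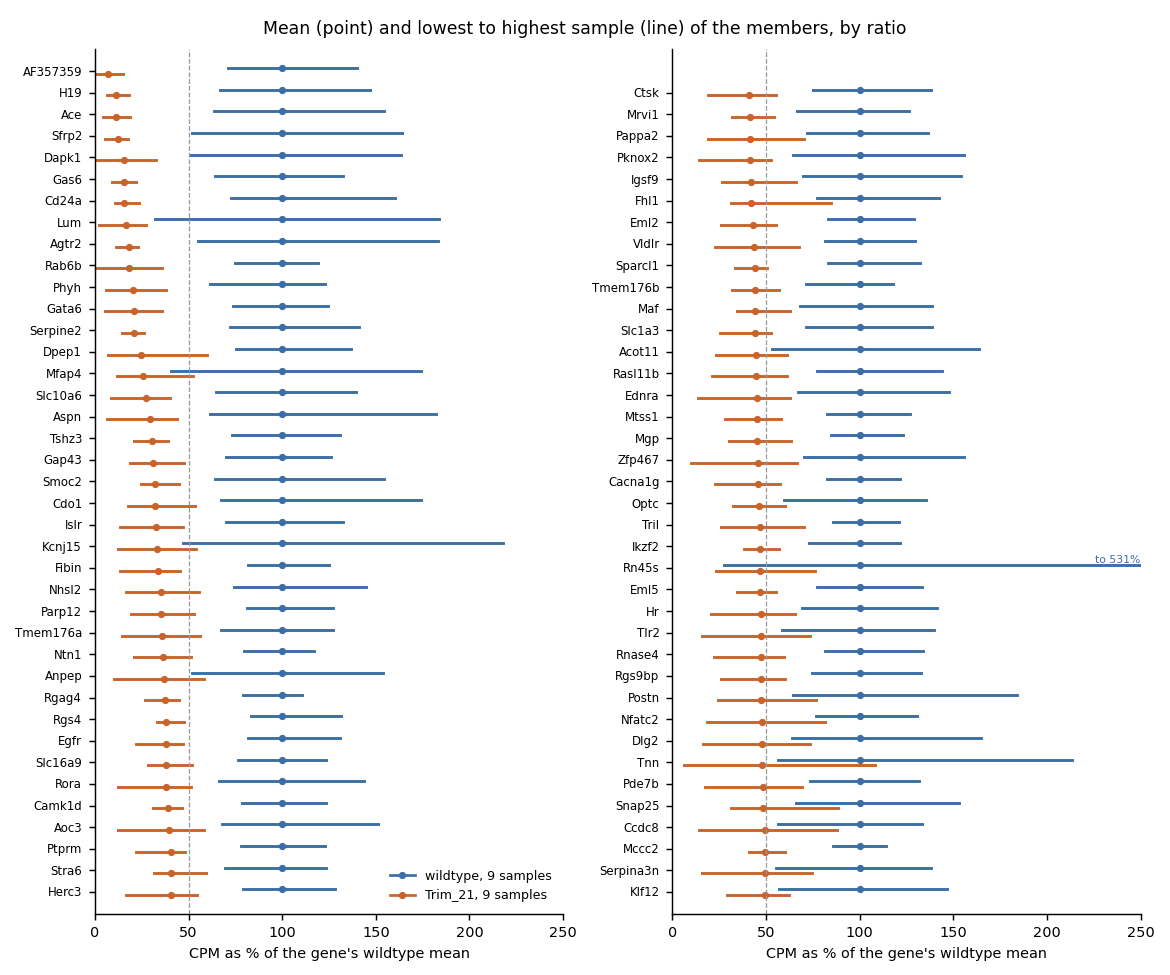
For each of the 77 members, the mean (point) and the lowest to highest of 9 samples (line) are drawn as a percentage of the gene's wildtype mean, with wildtype in blue, Trim_21 in orange and a dashed line at 50%. The lines of 16 members overlap, and the wildtype line of Rn45s runs past the axis because of wildtype BSA 14.

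The members were sorted by the known role of their product, a grouping made after the members were known. Matrix and other secreted proteins made up 12 of the 77, secreted regulators and proteases 7, surface receptors and adhesion proteins 10, surface enzymes 4 and transporters and channels 5. Proteins of signalling, scaffolds and membrane traffic inside the cell made up 15, transcription factors and nuclear receptors 10, metabolic enzymes 4 and non-coding RNAs 3, and 7 were not placed. No member belonged to the cell cycle list, of which 37 genes had a wildtype mean of at least 1 CPM. The rule kept 0.69% of all genes, so a count of 0 there is near that share.

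Of 70 matrix glycoprotein and proteoglycan genes with a wildtype mean of at least 1 CPM, 8 were members (11.4%), where the rule kept 0.69% of all genes. Postn encodes periostin, a matrix protein that binds integrins and is made by activated fibroblasts. Its level was 70.8 CPM at the lowest, 86.7 at the median and 202 at the highest in wildtype, and 27.0, 42.3 and 84.2 CPM in Trim_21. The lines overlapped for Postn: the 3 Trim_21 samples numbered 14 reached the level of the wildtype samples with other numbers. Aspn encodes asporin, a small leucine-rich proteoglycan that binds collagen and TGF-beta. Its wildtype levels were 38.4, 56.6 and 114 CPM (lowest, median and highest) and its Trim_21 levels 4.04, 18.2 and 27.4 CPM, with no overlap and with Trim_21 PBS 11 far below the rest of its line. Lum encodes lumican, a proteoglycan of the same family that orders collagen fibrils. It stood at 0.667, 2.03 and 3.82 CPM in wildtype and at 0.0485, 0.329 and 0.571 CPM in Trim_21, where the highest Trim_21 sample lay just under the lowest wildtype one.

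Mgp, which encodes matrix Gla protein, an inhibitor of calcification, ran from 20.8 to 30.2 CPM in wildtype and from 7.46 to 15.6 CPM in Trim_21. Sparcl1, a matricellular relative of SPARC, ran from 16.4 to 26.0 CPM and from 6.65 to 10.0 CPM. Smoc2, which encodes another SPARC-related calcium-binding protein, ran from 4.22 to 10.2 CPM and from 1.63 to 2.95 CPM. In these 3 genes the lines did not overlap, and the Trim_21 mean was 45.5%, 44.0% and 32.1% of the wildtype mean. Mfap4, a microfibril protein, and Tnn, the tenascin known as tenascin-W, both overlapped between lines. Optc (opticin), Fibin, Islr and Rnase4, a secreted ribonuclease, are secreted proteins outside the matrix list. Fibin stood at 15.6 ± 1.90 CPM (SD, n = 9) in wildtype and at 5.26 ± 1.39 CPM in Trim_21.

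Of the 62 other genes tested of the matrix list, 12 were lower and 2 higher in Trim_21 by edgeR's quasi-likelihood test at an adjusted p under 0.05. Over all 11083 other genes 430 were lower and 140 higher, which is also the background for the lists below. The median log2 fold change was -0.10 for the 62 matrix genes and 0.02 for all 11083. Those of the matrix list are named next. The matrix genes with the smallest p in each direction were Cthrc1, a secreted repeat protein, at 68.0% of wildtype, Nid2, the basement membrane protein nidogen-2, at 58.1%, Gpc1 (glypican-1) at 142% and Nov at 154%. No adhesion receptor (of 44), TGF-beta or BMP gene (of 42), Notch or hedgehog gene (of 17) or contractile gene (of 35) was a member. The rule kept 0.69% of all genes, so a count of 0 in lists of this size is near that share. Of these genes 9 adhesion, 6 TGF-beta or BMP, 3 Notch or hedgehog and 6 contractile genes were lower by the same test. In the same order 3, 1, 0 and 1 were higher.

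Among secreted regulators, Gas6 encodes the ligand of the TAM receptor tyrosine kinases. It stood at 2.76, 4.52 and 5.73 CPM in wildtype (lowest, median and highest) and at 0.388, 0.705 and 0.953 CPM in Trim_21, 15.7% of the wildtype mean with a wide gap between the lines. Gas6 was the only member among 31 genes of receptor tyrosine kinase ligands and the insulin-like growth factor system. Of the other 30 tested, 4 were lower and 3 higher. Sfrp2 encodes a secreted Wnt antagonist of the frizzled-related family. It stood at 1.25, 2.40 and 3.92 CPM in wildtype and at 0.129, 0.302 and 0.425 CPM in Trim_21. It was the only member among 35 Wnt signalling genes, of whose other 34 genes tested 5 were lower and 1 higher. Serpine2 encodes the thrombin inhibitor protease nexin-1, and its Trim_21 mean was 20.7% of wildtype (0.900 ± 0.184 against 4.35 ± 1.13 CPM, SD, n = 9 each). Serpina3n, another serine protease inhibitor, lay at the edge of the rule at 49.6% and overlapped between lines. Pappa2, which encodes a protease that frees insulin-like growth factors by cutting their binding proteins, ran from 35.0 to 66.7 CPM in wildtype and from 9.35 to 34.3 CPM in Trim_21. Ntn1, the axon guidance cue netrin-1, had 36.6% of the wildtype mean, and Ctsk, the collagen-degrading protease cathepsin K, 41.2%. Ntn1 was the only member among 41 axon guidance genes, of whose other 40 tested 1 was lower and 3 higher.

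Agtr2 and Ace both act in the angiotensin system. No list of that system was made, so no share of its genes is given. Agtr2 encodes the type 2 receptor of angiotensin II and lies at chrX:21484624-21488833. It stood at 56.9, 88.4 and 189 CPM in wildtype (lowest, median and highest) and at 11.8, 18.6 and 23.9 CPM in Trim_21, a mean of 18.1% of wildtype. The lines did not overlap, and wildtype PBS 14 was the highest sample. Ace encodes the angiotensin-converting enzyme. It stood at 2.26, 3.14 and 5.47 CPM in wildtype and at 0.145, 0.390 and 0.672 CPM in Trim_21, on 3 to 20 counts per Trim_21 sample. Anpep, aminopeptidase N, which trims angiotensin peptides among others, had 37.0% of the wildtype mean and overlapped between lines. The other surface enzymes were Aoc3, an amine oxidase also called vascular adhesion protein 1, at 39.7% and Dpep1, a dipeptidase, at 24.7%.

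Cd24a encodes a small, heavily glycosylated protein anchored to the surface by a lipid. It stood at 46.3, 56.6 and 102 CPM in wildtype and at 6.87, 9.63 and 14.8 CPM in Trim_21, 15.8% of the wildtype mean. The highest Trim_21 sample lay well under the lowest wildtype sample. Other receptors among the members were Ednra, the endothelin receptor A, at 45.2%, Egfr, the epidermal growth factor receptor, at 37.9%, Vldlr, a lipoprotein receptor that also binds reelin, at 43.9%, and Tlr2, a sensor of bacterial lipoproteins, at 47.4%. Of these Tlr2 overlapped between lines. Agtr2 and Ednra were the members among 35 G protein coupled receptor genes, of whose other 33 tested 1 was lower and 1 higher. Stra6, the receptor that takes up retinol from its plasma carrier, had 40.8%.

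Slc1a3, which encodes the glutamate transporter EAAT1 (GLAST) and lies at chr15:8634124-8710807, had the most reads of the members apart from Rn45s. It stood at 81.9, 114 and 159 CPM in wildtype and at 28.9, 52.2 and 60.1 CPM in Trim_21, so that the lines did not overlap and 8 of the 9 Trim_21 samples lay between 45.4 and 60.1 CPM. Cacna1g, the pore of the T-type calcium channel Cav3.1, had 46.0% of the wildtype mean. Kcnj15, an inward rectifier potassium channel, had 33.4% and overlapped between lines. Cacna1g and Kcnj15 were the only members among 30 ion channel genes. Of the other 28 tested, 2 were lower and 1 higher.

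**Figure D2:**
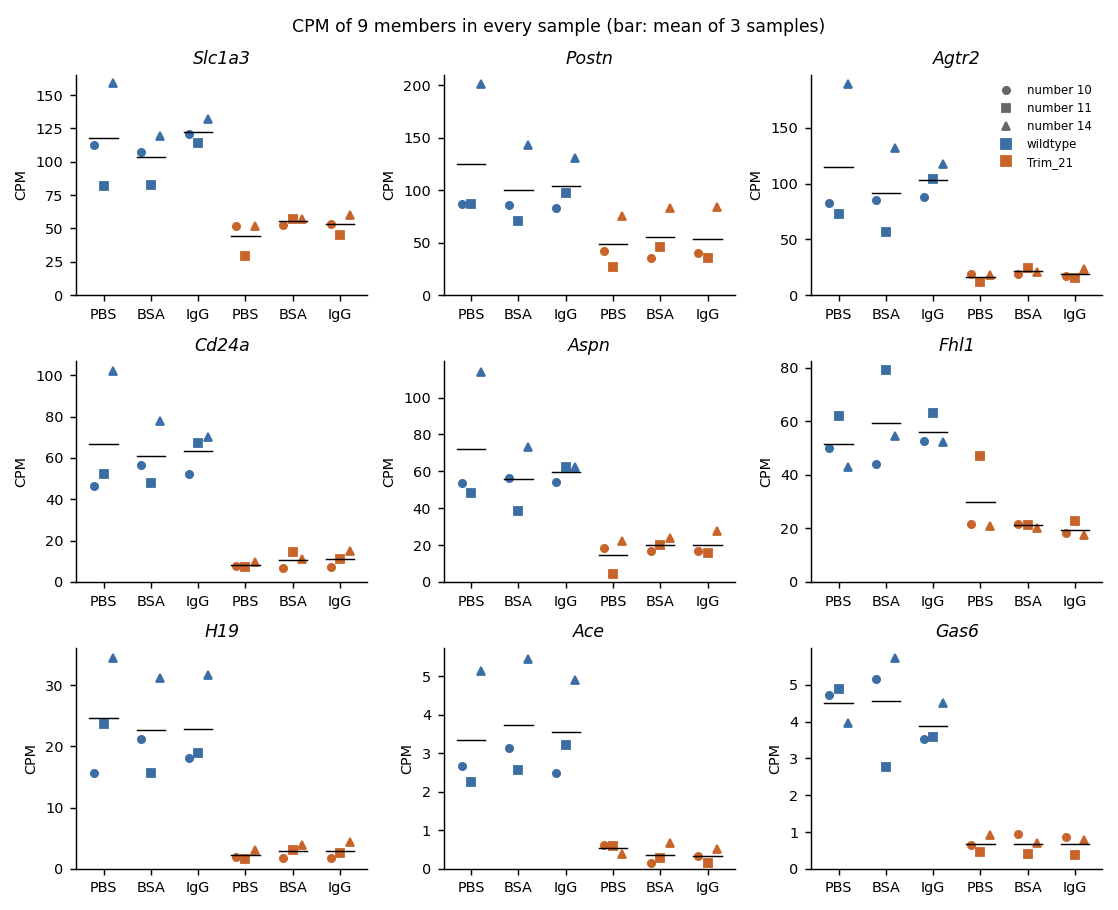
The plot gives the CPM of 9 members in all 18 samples, by line and treatment, with a marker for the number of each sample and a bar at the mean of 3 samples. In the wildtype samples the triangles of number 14 are highest under every treatment for Slc1a3, Postn, Agtr2, Cd24a, H19 and Ace. Fhl1 is high in Trim_21 PBS 11.

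Inside the cell, Fhl1, a LIM domain protein of the cytoskeleton, was 1 of 4 members, with Gap43, Parp12 and Stra6, whose highest Trim_21 sample was Trim_21 PBS 11. Fhl1 stood at 47.2 CPM there and at 17.6 to 22.7 CPM in the other 8 Trim_21 samples, against 43.0 to 79.3 CPM in wildtype. Rgs4, which speeds the shut-off of G protein signals, ran from 17.2 to 27.1 CPM in wildtype and from 6.86 to 9.81 CPM in Trim_21 with no overlap. Dapk1, a calmodulin-regulated kinase known for its part in cell death, had 15.5% of the wildtype mean on 0 to 10 counts per Trim_21 sample, and Rab6b, a small GTPase of Golgi traffic, 18.2% on 0 to 11 counts. Gap43 and Snap25, best known from growing axons and synapses, had 30.9% and 48.6%, and Snap25 overlapped between lines.

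Among transcription factors, Gata6, a zinc finger factor of heart and endoderm development, stood at 1.24 to 2.09 CPM in wildtype and at 0.0895 to 0.602 CPM in Trim_21, 20.6% of the mean. Tshz3 had 30.6%, the nuclear receptor Rora 38.1%, Maf 44.2%, Ikzf2 46.8%, Nfatc2 48.1% and Klf12 49.7%. Nfatc2 and Klf12 overlapped between lines. Gata6 and Tshz3 were the members among 69 developmental transcription factor genes, of whose other 67 tested 6 were lower and 1 higher. Of the metabolic enzymes, Phyh, which starts the breakdown of branched-chain fatty acids in peroxisomes, had 20.4% and Cdo1, which oxidises cysteine, 32.1%. Acot11, a thioesterase, had 44.9% and overlapped between lines. Mccc2, a subunit of an enzyme of leucine breakdown, had 49.6%.

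H19 is an imprinted, maternally expressed long non-coding RNA at chr7:142575530-142578146 that is abundant in embryonic tissues. It stood at 15.6, 21.2 and 34.4 CPM in wildtype and at 1.58, 2.57 and 4.29 CPM in Trim_21, 11.3% of the wildtype mean, and the lines were far apart. The transcript is also the precursor of a microRNA, whose mature RefSeq sequences are shown because the precursor was among the lowest ratios. The seed, bases 2 to 8, is in capitals.
mmu-miR-675-5p: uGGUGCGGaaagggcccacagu
mmu-miR-675-3p: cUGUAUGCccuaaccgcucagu
The mature forms were not measured in these libraries. Their places on the minus strand are chr7:142577112-142577133 and chr7:142577078-142577099. AF357359, annotated as a small nucleolar RNA of 30 bases at chr12:109650709-109650738, had the lowest ratio at 7.16%. Its annotated place lies inside Rian, which was itself among the 13 genes taken out, so reads of the host transcript and of this RNA cannot be told apart in these counts.

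At the edge of the rule, Mccc2 (49.6%), Serpina3n (49.6%) and Klf12 (49.7%) lay just inside, and Lmod1 (50.2%), Foxf1 (50.3%) and Selenbp1 (50.5%) just outside. For the wildtype minimum, Ccdc8 (1.05 CPM), Nfatc2 (1.07) and Slc10a6 (1.13) lay just inside, and Zan (0.987), P2ry14 (0.977) and Hmcn1 (0.965) just outside. Hmcn1, which encodes the matrix protein hemicentin-1, had 5.86% of its wildtype mean left.

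The positions of the members were not used by the rule. Other genes in this paragraph are those with a wildtype mean of at least 1 CPM, with the removed names left out. They lay on 19 autosomes and the X chromosome, with at most 8 on 1 chromosome (chromosome 7, of 829 genes there), and 13 of the 76 with a position (17.1%) had another member within 1 Mb, where 878 of 11044 other genes (7.95%) had a member that near. Islr and Stra6 lie 2.24 kb apart on chromosome 9, at chr9:58063793-58159236 together, and had 32.5% and 40.8% of wildtype. The other 13 genes near them had a median of 102% and none was called between the lines. Sfrp2 and Tlr2 lie 62.0 kb apart on chromosome 3 with no such gene between them, at 12.5% and 47.4%. Tmem176a and Tmem176b, which encode related 4-pass membrane proteins, overlap on chromosome 6 and had 35.9% and 44.0%, with the zinc finger gene Zfp467 at 45.7% 388 kb away. Camk1d and Phyh on chromosome 2 are 355 kb apart. Between them Optn, which encodes the autophagy receptor optineurin, had 53.1%, and the replication factor gene Mcm10 had 119%. Slc10a6 and Sparcl1 are 450 kb apart on chromosome 5, with 4 other genes at 71% to 97% between them. Nhsl2 and Rgag4 overlap on the X chromosome. The non-members within 1 Mb of any member had a median of 100.2% of wildtype. Neighbours share chromosome and, where they overlap, reads, and the counting's strand setting is not given in the sources used here.

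**Figure D3:**
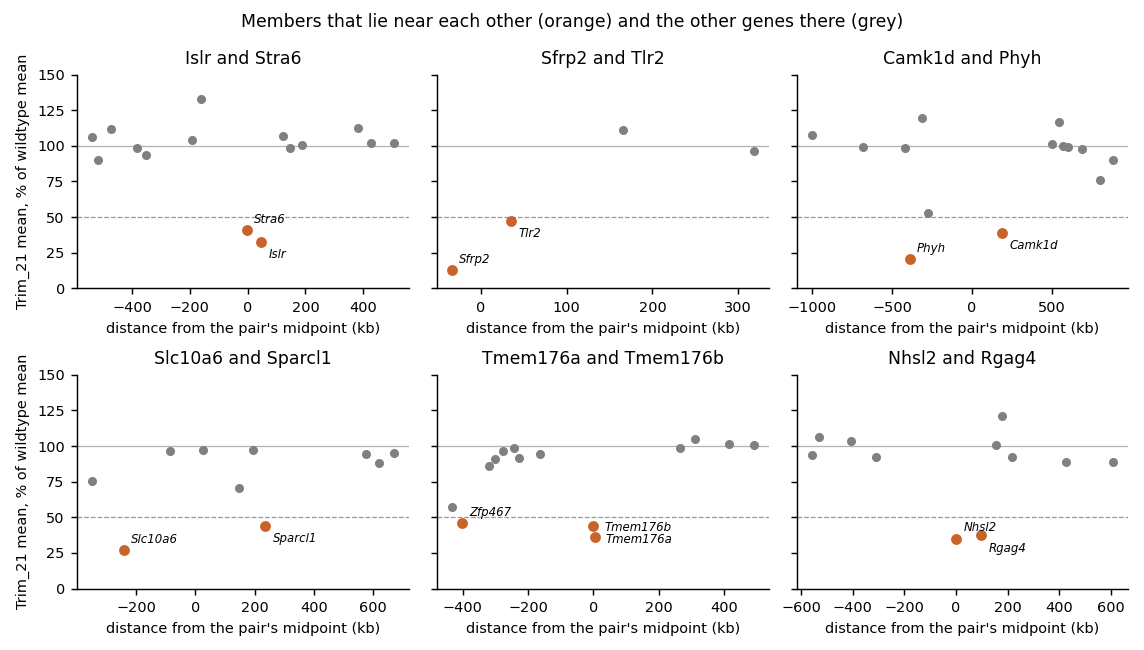
Trim_21 mean as a percentage of the wildtype mean for 13 members that lie within 1 Mb of another (orange) and for the other genes near them with a wildtype mean of at least 1 CPM (grey), by distance of each gene's midpoint from the midpoint of the 2 members in the panel title. Optn at 53.1% and Krba1 at 57.0% are the lowest grey points.

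The treatments within a line give a test that the rule did not use. By edgeR's quasi-likelihood test with Benjamini-Hochberg adjustment, 0 of the 77 members were called in any of the 6 comparisons of IgG, BSA and PBS within a line, and 0 in the 3 tests of whether a treatment difference was unlike in the 2 lines. The background was 0% of 12140 genes in all 9, and DESeq2 also called 0 members. At an unadjusted p under 0.05, 9 members passed for IgG against PBS in Trim_21 (5.61% of all genes), 2 for IgG against BSA (0.371%) and 1 for BSA against PBS (3.68%). In wildtype the numbers were 2 (2.68%), 3 (5.87%) and 1 (2.49%), and for the differences between lines 3 for IgG against PBS (1.82%), 3 for IgG against BSA (3.97%) and 4 for BSA against PBS (6.51%).

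The smallest unadjusted p for IgG against PBS in Trim_21 belonged to Tril, which encodes a partner of Toll-like receptors. Its levels were 0.329, 0.443 and 0.460 CPM after PBS and 0.901, 0.873 and 0.731 CPM after IgG, a log2 fold change of 0.99 ± 0.28 (SE) with an adjusted p of 0.72 by edgeR. The groups did not overlap. For BSA against PBS in Trim_21 it was Pappa2, with 19.7, 9.35 and 14.5 CPM after PBS and 18.3, 34.3 and 19.9 CPM after BSA, a log2 fold change of 0.70 ± 0.25 with an adjusted p of 0.84 by edgeR. Those groups overlapped. In wildtype it was Eml5, a microtubule-associated protein, for IgG against PBS (0.43 ± 0.17, adjusted p of 1 by edgeR) and against BSA (0.47 ± 0.17, adjusted p of 0.74 by edgeR).

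The median log2 fold change of the members was 0.30 for IgG against PBS in Trim_21, with 56 of 77 above 0, and 0.26 for BSA against PBS, with 62 of 77 above 0, while the medians of all genes were 0.01 and 0.00. Both rest on Trim_21 PBS 11, the library with low levels of most members. Without it the medians were 0.09 and 0.09, and 1 and 0 members had an unadjusted p under 0.05. In wildtype the median of the members was 0.05 for IgG against PBS (43 of 77 above 0), 0.13 for IgG against BSA (55 above 0) and -0.10 for BSA against PBS (50 below 0). Comparisons within a line share samples, so their values are not independent of each other.

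**Figure D4:**
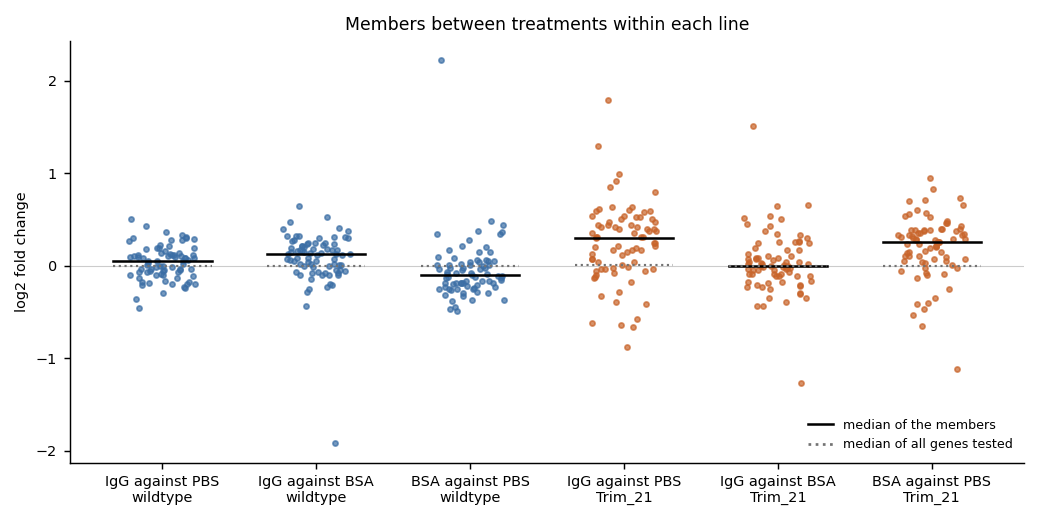
Each point is the log2 fold change of 1 member in 1 comparison of treatments, with the wildtype line in blue and the Trim_21 line in orange, a black bar at the median of the 77 members and a dotted bar at the median of all 12140 genes. The medians of the members lie between -0.10 and 0.13 in wildtype and at 0.30 and 0.26 against PBS in Trim_21, or at 0.09 and 0.09 without Trim_21 PBS 11; the far points in the wildtype BSA comparisons are Rn45s.

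Each sample number occurs once in each of the 6 groups, so the numbers are balanced over the lines. The rule used the same values, however. A high level in number 14 helped a gene pass in wildtype and hindered it in Trim_21. Kcnj15 had wildtype means of 0.561, 1.05 and 1.87 CPM in numbers 10, 11 and 14. By the rule in number 10 alone, Kcnj15, Slc10a6, Acot11 and Ednra were not kept, and in number 14 alone they were. Postn, Serpina3n and Tnn were not kept in number 14 alone. The comparison of numbers is therefore not independent of the choice of members. This comparison was added after the data had been seen, and the labels do not say what the numbers stand for. In the samples numbered 14 against those numbered 10 and 11, with a mean for each group in the model, 24 of the 77 members were higher and 0 lower by edgeR's quasi-likelihood test at an adjusted p under 0.05, where 3.48% of 12140 genes were higher and 4.69% lower. At an unadjusted p under 0.05 it was 39 higher and 3 lower, and DESeq2 called 27 higher and 1 lower. The samples numbered 14 held 20177507 to 29766433 gene reads and the others 19509017 to 25188572. The median log2 difference was 0.27 for the members, with 66 of 77 above 0, and 0.00 for all genes. The median member stood at 109% to 125% of the wildtype mean in the 3 wildtype samples numbered 14, at 84.7% to 87.1% in those numbered 10 and at 81.1% to 104% in those numbered 11. In Trim_21 it stood at 40.3% to 43.7% in number 14, at 34.9% to 35.7% in number 10 and at 21.8% to 44.2% in number 11, so there the numbers 11 and 14 overlapped. Against the other numbers, 1 member was higher and 10 lower in number 10 (3.39% and 2.13% of all genes), and 2 were higher and 3 lower in number 11 (1.64% and 0.898%).

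Postn was at 86.6, 86.2 and 83.5 CPM in wildtype samples numbered 10 (PBS, BSA and IgG), at 86.7, 70.8 and 97.6 CPM in number 11 and at 202, 143 and 131 CPM in number 14. In Trim_21 it was at 42.3, 35.5 and 40.4 CPM, at 27.0, 46.2 and 35.2 CPM and at 75.6, 83.5 and 84.2 CPM. All 6 samples numbered 14 lay above the others of their line, and the log2 difference was 0.97 ± 0.09 (SE) with an adjusted p of 7e-05 by edgeR. H19 rose by 0.77 ± 0.11, at 31.2 to 34.4 CPM in wildtype samples numbered 14 against 15.6 to 23.7 CPM in the others, with an adjusted p of 0.0024 by edgeR. In Trim_21 it was at 3.01 to 4.29 CPM in number 14 and at 1.58 to 3.00 CPM in the others. In all, 10 members had every sample numbered 14 above the others in both lines, among them Tnn (1.27 ± 0.20), Mfap4 (1.07 ± 0.16), Lum (0.86 ± 0.24), Serpina3n (0.79 ± 0.15), Cdo1 (0.76 ± 0.12), Aoc3 (0.75 ± 0.13) and Islr (0.56 ± 0.12).

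By role, 6 of the 12 matrix and secreted members rose (median log2 difference of the group 0.46), 3 of the 4 surface enzymes (Ace, Anpep and Aoc3; 0.75) and 2 of the 4 metabolic enzymes (Cdo1 and Acot11; 0.50). Of the 10 receptors 4 rose (Agtr2, Ednra, Tlr2 and Cd24a; median 0.25), of the 7 secreted regulators 2 (Sfrp2 and Serpina3n; 0.25) and of the 5 transporters and channels 3 (Slc1a3, Slc10a6 and Kcnj15; 0.30). Of the 10 transcription factors 1 rose (Maf; median 0.34), of the 15 signalling and scaffold members 2 (Rgs4 and Mrvi1; 0.12), of the 3 non-coding RNAs 1 (H19; 0.27) and of the 7 members not placed 0 (0.14). Kcnj15, Slc10a6, Acot11 and Ednra are among these counts, and their membership rested in part on number 14. Differences between the roles were not tested. Agtr2 rose by 0.55 ± 0.14 (adjusted p of 0.028 by edgeR), with the wildtype samples numbered 14 at 118 to 189 CPM above all others of that line, while in Trim_21 number 14 overlapped the rest. The lowest values, -0.36 for Vldlr, -0.34 for Gap43 and -0.29 for Fhl1, did not pass the test. Other genes moved with the same number. Of the 37 cell cycle genes, 15 were lower in number 14 and 0 higher, with a median of -0.23. Of the 68 other matrix genes, 14 were higher and 2 lower, of 61 other interferon and innate immune genes 12 were higher and 0 lower, and of 70 other developmental transcription factor genes 13 were higher and 1 lower. Their part in the members' difference was not tested. The cell cycle genes were also a little higher in Trim_21, with a median of 113% of wildtype, where 0 of 37 were called.

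The count rests on both lines together. In the 9 Trim_21 samples alone 1 of 69 members tested was called (4 genes of all higher), and in the 9 wildtype samples alone 0 of 77 (1 gene), with 14 and 37 members higher at an unadjusted p under 0.05, while the median log2 difference of the members was 0.21 and 0.34. Leaving out 1 sample at a time gave 9 to 28 members, with 9 without wildtype BSA 14, 14 without wildtype BSA 11 or Trim_21 BSA 14 and 15 without Trim_21 BSA 10, wildtype IgG 10 or wildtype IgG 14. Postn, H19, Mfap4, Tnn, Sfrp2, Cdo1, Aoc3 and Serpina3n were called in all 18 of these fits.

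**Figure D5:**
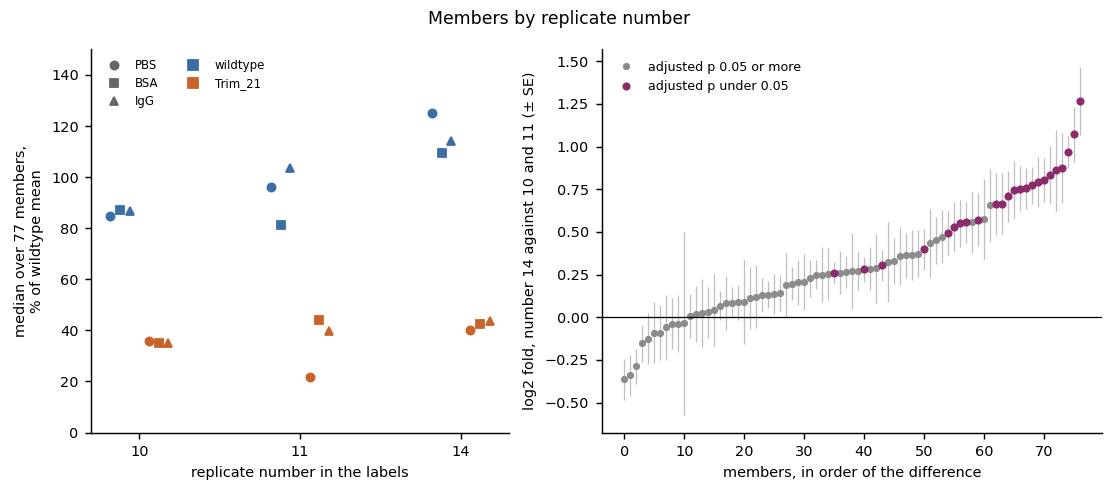
The panel on the left gives the median of the 77 members in each sample, as a percentage of the wildtype mean, by sample number, line and treatment; the panel on the right gives each member's log2 difference between number 14 and numbers 10 and 11 with its standard error. In wildtype the 3 samples numbered 14 lie highest, at 109% to 125%, and 66 of the 77 members lie above 0 on the right.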

How the data were processed

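Total RNA of 18 samples was enriched for polyadenylated RNA and made into stranded libraries, per the labels' protocols. The authors deposited 1 table of unnormalized counts by gene symbol for each sample, made with STAR 2.5.1b and HTSeq 0.6.0 on mm10, per the submitters' processing notes; the annotation and strand setting are not given in the sources used here. Reads shared with near-identical copies or overlapping genes can be lost or split; this touches Cd24a, Serpina3n and the 22 members that overlap a counted gene.

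CPM were computed per 1000000 gene reads without further scaling and are not corrected for gene length, so levels are compared within a gene. Genes were kept by filterByExpr (12140, all 77 members among them), scaled by TMM and fitted with 1 mean per group to all 18 samples by edgeR 4.0.16 (glmQLFit and glmQLFTest, R 4.3.3), with Benjamini-Hochberg adjustment over all genes and a threshold of 0.05. The number contrast added the sample number to the group means. DESeq2 1.42.0, its size factors, no filter, a block, the 2 groups alone and each sample left out were alternatives. The main fit was tried on simulated data for IgG against PBS in Trim_21 only. Those data held no effect of the sample number, so they do not bear on the number contrast. Positions, promoters and microRNAs came from RefSeq (GRCm38.p6), matched by symbol or synonym for 76 members. The genes named were the 12 lowest ratios, the 12 highest wildtype means, up to 4 members per list, members called or with the smallest p in a treatment comparison, those nearest the limits, those within 1 Mb of another, and the 2 other genes per list and direction with the smallest p; further members were named after their values were seen. The members and lists were chosen with earlier results of these data known. Depth was 19509017 to 29766433 gene reads per sample; a member's median count was 36 in Trim_21, so single values of low members carry a wide counting error.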

Additional observations from a re-analysis of the deposited data

Results flagged for a closer look

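Each line's 9 samples were searched for a member whose highest or lowest sample stood far from the rest, by Dixon's gap over range at its 95% critical value for 9 samples. Of 154 such groups 14 were marked, where chance alone marks about 1 in 20. In Trim_21 PBS 11, 7 stood out. Low there were Aspn (4.04 CPM, next 15.8), Fibin (2.07, next 4.63), Ptprm (3.25, next 5.73), Rgag4 (2.56, next 3.44), Rnase4 (5.56, next 10.4) and Slc1a3 (28.9, next 45.4), and high there was Fhl1 (47.2 CPM, next 22.7). In wildtype PBS 14, 4 stood high: Aspn (114 CPM, next 73.3), Dlg2 (5.01, next 3.23), Rnase4 (33.5, next 26.4) and Tnn (4.86, next 2.90). The others were Rn45s in wildtype BSA 14 (9247 CPM, next 1420), Rgag4 in wildtype BSA 11 (7.60 CPM, lowest, next 9.24) and Smoc2 in Trim_21 BSA 11 (2.95 CPM, highest, next 2.27).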

How the results depend on the processing

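The rule gave 77 genes as set, and of 30 other settings 2 moved the count by over 1.5 times: 22 genes with the Trim_21 mean at most 33.3% of wildtype, and 154 in the PBS samples alone, 72 of them members. Leaving out a sample gave 65 to 87. The log2 fold change of Rn45s between the lines turned to 0.045 without wildtype BSA 14 (range -0.91 to 0.045 over left-out samples), and that for BSA against PBS in wildtype turned to -0.13 (range -0.13 to 2.75), since this library alone held 9247 CPM. No other of the 45 members refitted between the lines turned sign, nor did the members refitted for the samples numbered 14 or those with the smallest p in the other treatment comparisons. The genes called between lines numbered 750, or 1462 with the replicate block, 1268 without Trim_21 PBS 14 and 517 to 1268 over all left-out samples. Members called for treatments stayed at 0 in every setting, the left-out samples included (0 to 0). Same-numbered samples of different groups deviated together in part (correlations from -0.323 to 0.578, mean 0.218); since not every correlation was over 0.1, the level set for pairing, the fit without the block was kept; with the replicate block 0 members were called for any treatment. The number 14 count was 1 in Trim_21 alone, 0 in wildtype alone, and 9 to 28 with a sample left out; the cause of its spread was not tested. Depth limits the low members most: 26 of the 77 had under 10 counts in at least 1 Trim_21 sample, so a treatment difference there may go undetected.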
